A study of Mus musculus with 12 samples.

Results

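Albumin and the plasma carrier proteins were examined through the 7 liver genes that encode them: Alb (albumin), Afm (afamin), Afp (alpha-fetoprotein), Gc (vitamin D-binding protein), Ttr (transthyretin), Rbp4 (retinol-binding protein) and Trf (transferrin). They were chosen by gene symbol and are 7 of the 38087 genes in the count table, each standing once. All 7 passed the filter on low counts and were among the 14235 genes tested. RNA came from livers of male C57BL/6j mice aged 13 to 16 weeks, all of them germ-free, meaning that they carried no microorganisms. The 6 samples of the GH group followed recombinant human growth hormone (GH) at 50 µg per mouse and the 6 control samples followed phosphate-buffered saline (PBS). Injections were subcutaneous in both groups and given 2 times daily over 5 days, at ZT 2 and at ZT 14, where ZT counts hours after lights on. Every liver was taken at ZT 2. The comparison asks what GH given by injection does to the male liver transcriptome when no microbiota is present.

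Hepatocytes make most of the proteins of blood plasma and release them through the secretory pathway. Albumin is the most abundant of these and carries fatty acids, bilirubin, hormones and drugs. Afamin binds vitamin E, alpha-fetoprotein is the main albumin relative of the fetus and is largely silenced after birth, and the vitamin D-binding protein carries vitamin D metabolites and captures actin. These relatives arose from duplications of one ancestral gene. Transthyretin carries thyroid hormone and also holds the retinol-loaded retinol-binding protein in the circulation, and transferrin delivers iron to cells that have its receptor.

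Coordinates here are of mm10, from GENCODE M21. Of the 7 genes, 4 lie on chromosome 5. Alb (chr5:90460897-90476602), Afp (chr5:90490737-90508907) and Afm (chr5:90518932-90553543) follow one another on the plus strand within 92.6 kb, with 14.1 kb between Alb and Afp and 10.02 kb between Afp and Afm. Gc (chr5:89417522-89457898) lies on the minus strand, 1003 kb from Alb. Rbp4 is at chr19:38116629-38125281 and Trf at chr9:103204001-103230444, both on the minus strand. All 7 genes, Ttr included, are protein-coding, and counts are of reads in their exons.

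The promoters of Alb, Afp, Afm and Gc are shown because these genes share an origin and yet, as described below, their levels lie orders of magnitude apart. Each is 300 bases long, from 250 bases before the RefSeq transcript start to 50 after it (GRCm38.p6, the same assembly as mm10), written 5′ to 3′ on the strand of the gene. Capitals mark CCAAT, a common promoter element, searched on both strands, so that it reads ATTGG where it lies on the other strand.
Alb (chr5:90460620-90460919, plus strand): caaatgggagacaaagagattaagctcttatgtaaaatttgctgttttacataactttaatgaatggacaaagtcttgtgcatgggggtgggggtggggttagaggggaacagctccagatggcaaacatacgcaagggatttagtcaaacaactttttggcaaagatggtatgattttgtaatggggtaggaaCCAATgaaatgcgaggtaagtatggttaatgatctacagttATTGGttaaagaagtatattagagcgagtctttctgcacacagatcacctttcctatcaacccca
Afp (chr5:90490464-90490763, plus strand): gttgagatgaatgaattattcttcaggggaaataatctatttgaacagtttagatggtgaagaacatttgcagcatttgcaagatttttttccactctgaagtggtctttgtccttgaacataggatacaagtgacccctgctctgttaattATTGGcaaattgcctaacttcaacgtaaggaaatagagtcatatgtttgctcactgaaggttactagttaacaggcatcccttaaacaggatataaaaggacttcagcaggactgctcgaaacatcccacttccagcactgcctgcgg
Afm (chr5:90518699-90518998, plus strand): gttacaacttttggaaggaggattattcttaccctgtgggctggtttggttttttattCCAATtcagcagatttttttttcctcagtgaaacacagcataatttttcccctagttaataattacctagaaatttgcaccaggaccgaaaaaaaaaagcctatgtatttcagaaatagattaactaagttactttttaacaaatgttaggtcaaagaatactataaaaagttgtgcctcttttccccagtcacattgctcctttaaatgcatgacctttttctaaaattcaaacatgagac
Gc (chr5:89457849-89458148, minus strand): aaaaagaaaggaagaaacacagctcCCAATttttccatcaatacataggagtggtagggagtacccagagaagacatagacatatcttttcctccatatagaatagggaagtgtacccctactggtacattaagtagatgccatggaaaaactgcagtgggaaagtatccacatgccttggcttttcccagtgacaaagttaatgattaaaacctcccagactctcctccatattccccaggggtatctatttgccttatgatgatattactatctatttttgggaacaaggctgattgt
The element starts 56 and, on the other strand, 15 bases before the transcript start in Alb, 192 in Afm and 225 in Gc, and on the other strand 98 in Afp. These distances are from the RefSeq start, which for Alb, Afp and Afm is not the GENCODE start given above. CCAAT was found in 37.4% of the 32851 promoters of that length in the RefSeq table, so its presence in these 4 does not set them apart. TATAAA, the TATA box, was found in Afp, in Afm and in the Rbp4 promoter at chr19:38124762-38125061, and in 13.6% of all promoters. Rbp4 has 2 promoters in the RefSeq table, and its other one held no TATAAA. TTCNNNGAA, the core recognised by the GH-activated factor STAT5, was found on neither strand of the promoters of the 5 of 7 genes that matched the table (these 4 and Rbp4), against 8.30% of all promoters. ATCAAT, a core bound by the Onecut factors, was found in Gc alone among the 5 and in 7.54% of all promoters. A match is not a bound site, and a window without one says only that these letters are not in it.

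The 12 libraries held 19523104 to 23278931 counts each. Since the labels do not say whether numbered samples are separate animals, a p-value reflects only the scatter among the samples of a group, which may be technical. Levels are counts-per-million (CPM) after scaling by TMM, a method that aligns libraries on the bulk of their genes, and adjusted p-values are from edgeR's quasi-likelihood test with Benjamini-Hochberg adjustment over all 14235 genes. Of these, 682 passed an adjusted p of 0.05, which is 4.79%. The 10 genes taken as hepatocyte markers summed to 39580–43700 CPM in PBS and 38210–45230 CPM in GH, and none of the 10 passed edgeR's test. Of these, Cps1 (log2 fold change -0.22) passed in DESeq2 (adjusted p = 0.0104) and in edgeR with library totals alone (0.0231), and Tdo2 (0.36) passed in DESeq2 (0.0302). Of 9 stellate cell and fibroblast markers Dcn fell and 8 did not pass, with a median log2 fold change of 0.05. Of 7 tested erythroid markers Alas2 rose and 6 did not pass. No tested marker of the other cell types passed edgeR's test. Only 1 of 8 markers of T, B and NK cells was tested, 1 of 6 of neutrophils and 1 of 6 of pancreas and adipose, so little can be said of those. The part of the marker genes in the results was not tested. In whole tissue, fewer cells of a type and less RNA per cell cannot be told apart.

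None of the 7 carrier genes passed edgeR's test at an adjusted p of 0.05, in either direction. At an unadjusted p under 0.05 there were 2 of 7, Alb and Afm, both lower in GH, against a background of 9.83% of tested genes lower at that threshold. DESeq2 called these 2 genes lower, against 4.06% of its tested genes. So did edgeR with libraries scaled by their totals alone (4.62% of genes lower), and edgeR without the filter on low counts called Alb alone (1.24%). The 6 PBS and the 6 GH values overlapped for all 7 genes, while 3.18% of all tested genes had groups that did not overlap. The median log2 fold change of the 7 was 0.000775 and that of all tested genes was 0.000537.

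**Figure D1:**
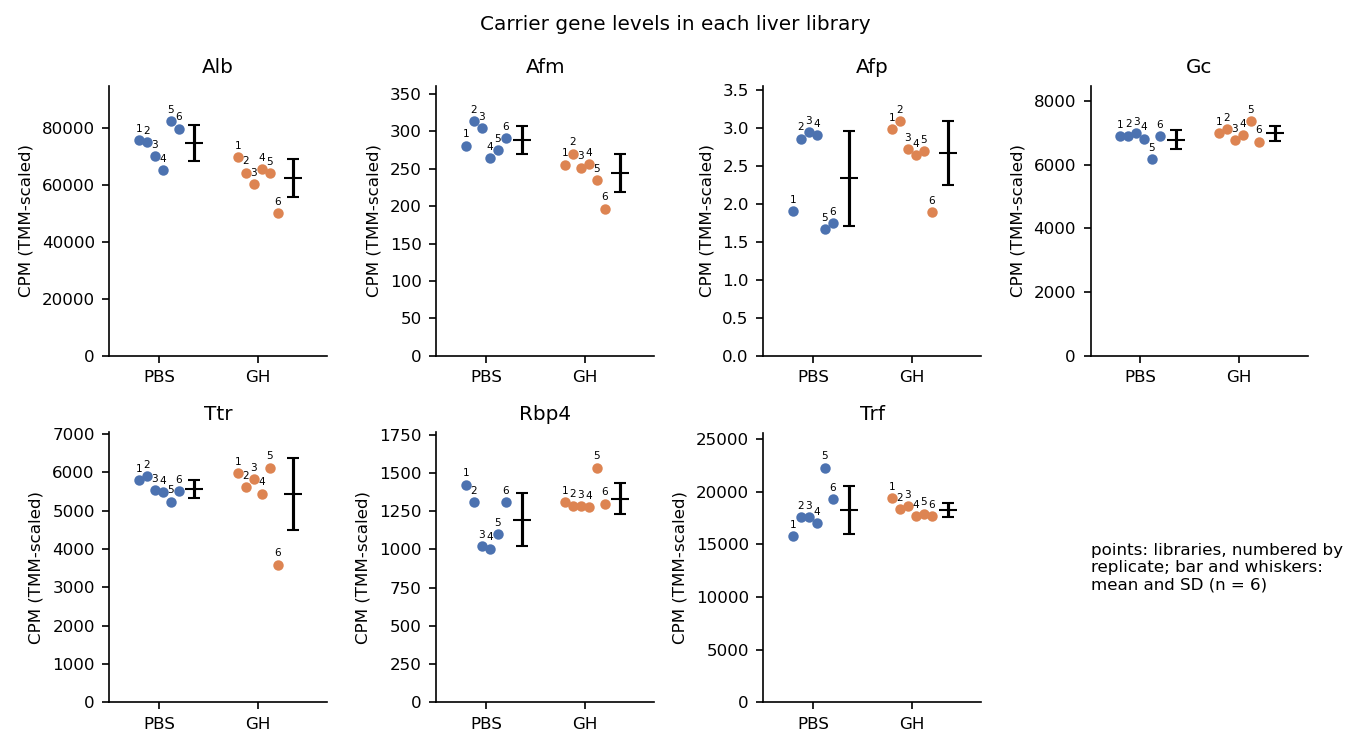
CPM after TMM scaling of the 7 carrier genes in each liver library, with PBS and GH side by side, replicate numbers above the points, and the mean and SD of 6 libraries as bar and whiskers. All 6 GH values of Alb and of Afm lie below the PBS mean. GH replicate 6 is the lowest GH library for every gene but Rbp4, by a small margin for Gc and Trf.

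The levels spanned more than 4 orders of magnitude once divided by the length of exon. In PBS, Alb stood at 31968 ± 2707 CPM per kb (SD, n = 6), Trf at 5500 ± 687 and Ttr at 4697 ± 200. Gc followed at 3675 ± 165 CPM per kb, Rbp4 at 890 ± 130, Afm at 94.8 ± 6.14 and Afp at 0.695 ± 0.185. Neighbours in this order had separate ranges in PBS except Trf (4750 to 6712 CPM per kb) and Ttr (4415 to 4971). In GH it was Ttr (3024 to 5158) and Gc (3644 to 3992) whose ranges overlapped, while Trf (5318 to 5845) lay above Ttr. By mean CPM, without regard to length, Alb ranked 1 among all genes, Trf 5, Gc 17, Ttr 23, Rbp4 92, Afm 448 and Afp 11062.

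**Figure D2:**
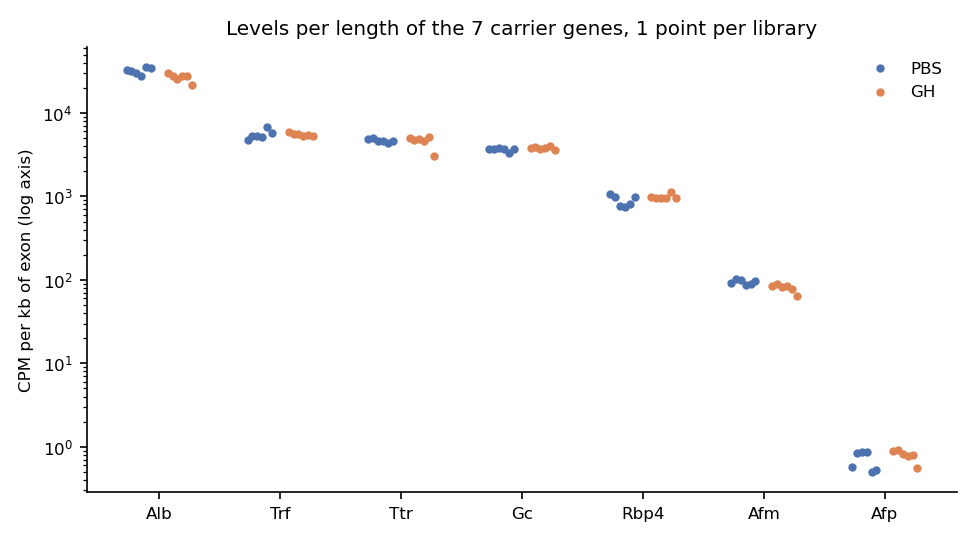
CPM per kb of exon on a log axis, 1 point per library, for the 7 carrier genes in order of their PBS mean, PBS in blue and GH in orange. Alb lies above all others, Trf, Ttr and Gc lie close together, and Afp lies far below.

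Albumin took up the largest part of these counts. Alb ran from 65228 to 82565 CPM in the PBS libraries, with a median of 75642. In GH it ran from 50203 to 70012 CPM, with a median of 64311. All 6 GH values were below the PBS mean, but PBS replicate 4, the lowest of its group, was below GH replicates 1 and 4. The mean went from 74870 ± 6339 to 62486 ± 6754 CPM (SD, n = 6), a log2 fold change of -0.26 ± 0.0877 (SE) with a 95% interval of -0.446 to -0.0753 and an adjusted p of 0.108 in edgeR. This result turned on the processing: the adjusted p was 0.0368 in DESeq2, 0.0324 in edgeR with libraries scaled by their totals alone, and 0.0491 in edgeR without the filter on low counts. It was 0.0991 to 0.204 with the other scalings, a non-robust fit, and a fit with replicate number as a term. With 1 library left out it ran from 0.0745 to 0.200.

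Afamin, the albumin relative that follows Afp on the chromosome, had a log2 fold change close to that of Alb, and it too did not pass edgeR's test. Afm ran from 264 to 313 CPM in PBS (median 286) and from 197 to 270 CPM in GH (median 254). All 6 GH values were below the PBS mean, and GH replicate 2, the highest, lay above PBS replicate 4, the lowest. The log2 fold change was -0.24 ± 0.0788 (95% interval -0.405 to -0.0714), with an adjusted p of 0.101 in edgeR, 0.0452 in DESeq2 and 0.0371 in edgeR with library totals alone. The adjusted p was 0.0949 to 0.151 with the other scalings, no filter, a non-robust fit, and a fit with replicate number as a term. Afm shares 108 exonic bases with Gm42109 on the opposite strand, which was not in the count table.

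The alpha-fetoprotein gene lies between these 2 on the chromosome and was near the lower limit of what was counted, with 36 to 62 reads per library. Afp ran from 1.67 to 2.95 CPM in PBS (median 2.38) and from 1.89 to 3.09 CPM in GH (median 2.71). The PBS libraries were split, with replicates 2, 3 and 4 at 2.86 to 2.95 CPM and replicates 1, 5 and 6 at 1.67 to 1.91. Counting error alone is wide at this depth: the exact Poisson 95% interval was 1.17 to 2.32 CPM for PBS replicate 5 and 2.26 to 3.79 CPM for PBS replicate 3, and such intervals cover counting error only. The log2 fold change was 0.19 ± 0.188 (95% interval -0.205 to 0.589, adjusted p = 0.636 in edgeR). The interval does not reach the point estimates of Alb and Afm, but it overlaps their intervals, and the ratio of Afp to Alb did not pass (below).

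The vitamin D-binding protein gene held a narrow range. Gc ran from 6171 to 6990 CPM in PBS (median 6898) and from 6723 to 7365 CPM in GH (median 6959). PBS replicate 5 was the low library, and the other 5 PBS libraries lay between 6815 and 6990 CPM, inside the GH range. The log2 fold change was 0.04 ± 0.0629, with a 95% interval of -0.0908 to 0.176 (adjusted p = 0.777 in edgeR). That interval does not contain the point estimate of Alb, its relative 1003 kb away, but it overlaps the interval of Alb (-0.446 to -0.0753).

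Of the pair that travels together in plasma, transthyretin (Ttr, at chr18:20665280-20674321 on the plus strand) had 1 library apart. Ttr ran from 5236 to 5895 CPM in PBS (median 5516) and from 3586 to 6117 CPM in GH (median 5715). GH replicate 6 gave the 3586, and the other 5 GH libraries lay between 5441 and 6117 CPM. The log2 fold change was -0.04 ± 0.107 (95% interval -0.264 to 0.188, adjusted p = 0.896 in edgeR), and without GH replicate 6 it was 0.0564 (adjusted p = 0.686).

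Rbp4, whose protein carries retinol out of the liver, ran from 1004 to 1423 CPM in PBS (median 1204) and from 1275 to 1533 CPM in GH (median 1291). All 6 GH values were above the PBS mean of 1195 CPM, and 5 of them lay between 1275 and 1308. PBS replicates 1, 2 and 6 were at 1308 CPM or more, so the groups overlapped. The log2 fold change was 0.15 ± 0.0939 (95% interval -0.0441 to 0.354, adjusted p = 0.405 in edgeR).

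Transferrin was the carrier with the smallest estimated change. Trf ran from 15770 to 22285 CPM in PBS (median 17592) and from 17655 to 19405 CPM in GH (median 18126), so the GH range lay inside the PBS range. The log2 fold change was 0.00 ± 0.0823 (95% interval -0.174 to 0.175, adjusted p = 0.997 in edgeR), and its sign changed with the scaling. Trf shares 2108 exonic bases with Gm20425 on the same strand, and the counts of Gm20425 exceeded those of Trf by only 136 to 279 in each library, so both hold nearly the same reads. Gm20425 adds 1.62 to 2.26% to the total of a library in this way.

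**Figure D3:**
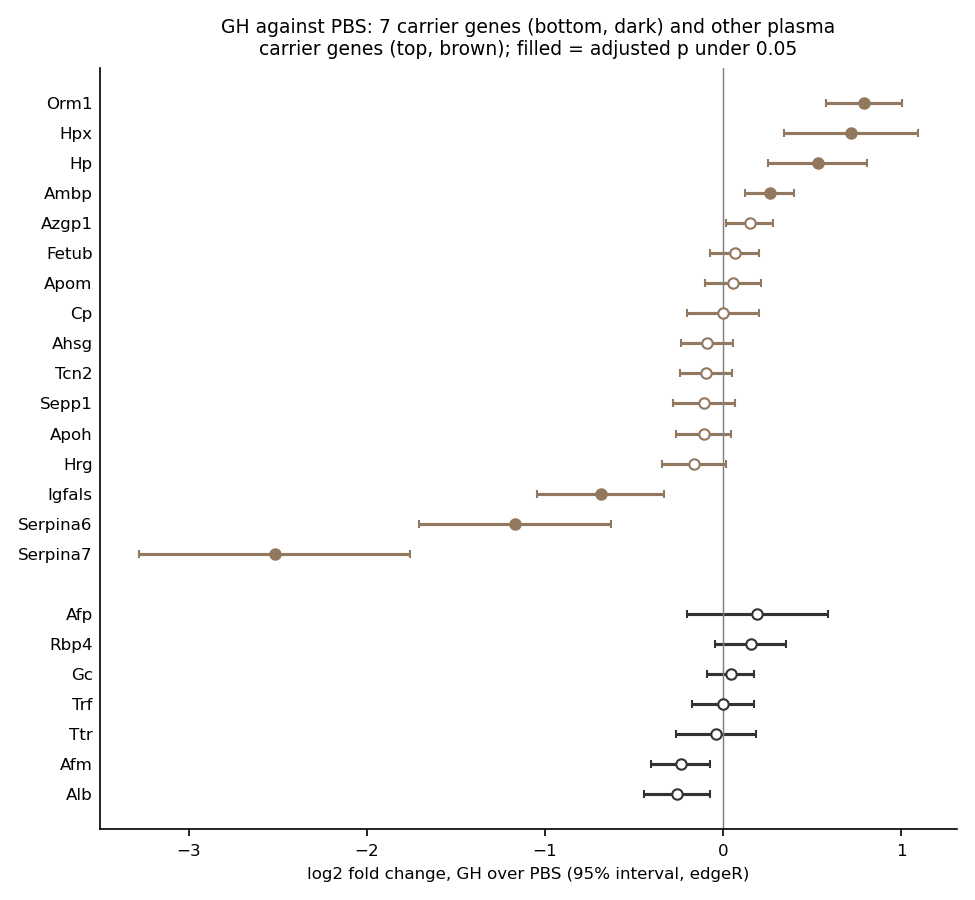
Log2 fold changes of GH over PBS with 95% intervals from edgeR, for the 7 carrier genes at the bottom and 16 other plasma carrier genes at the top. Filled points passed an adjusted p of 0.05. The intervals of Alb and Afm lie below 0 with open points, and Serpina7 has the most negative value.

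The share of a library's counts scales by the library total alone, without TMM. The TMM factors were 1.006 to 1.038 in PBS and 0.959 to 0.998 in GH. Scaling by totals alone put the median log2 fold change of all tested genes at -0.0586. The part of this shift in the share was not tested. The 7 genes together took 9.78 to 11.9% of the counts in PBS and 7.86 to 9.96% in GH. The mean went from 10.9 ± 0.727% to 9.27 ± 0.737% (SD, n = 6), a difference of -1.64 percentage points (two-sided exact permutation test over 924 assignments, p = 0.00433), with all 6 GH libraries below the PBS mean. The groups overlapped, since GH replicate 1 exceeded PBS replicate 4. Without Alb the other 6 genes held 3.27% in PBS and 3.16% in GH, a difference of -0.116 percentage points (exact p = 0.216). Alb therefore carried most of the difference in the share. The 7 genes were listed when earlier results of these data were known, and the p-value for the share has no adjustment over other genes. Alb itself had an adjusted p of 0.108 in edgeR, or 0.0324 with library totals alone.

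Ratios of 2 genes within a library do not depend on scaling between libraries, and they show how the other carriers stood relative to albumin. Per 1e6 Alb reads there were 91280 Gc reads in PBS and 112770 in GH, 15962 and 21495 Rbp4 reads, and 243982 and 294996 Trf reads. Of the 6 ratios to Alb, 3 rose. On the log2 scale Gc to Alb rose by 0.31, Rbp4 to Alb by 0.43 and Trf to Alb by 0.27, each with an exact two-sided permutation p of 0.00433, or 0.0101 after adjustment over the 7 ratios computed. In each of these 3 ratios all 6 GH libraries were above the PBS mean, though the groups overlapped. The ratios share Alb as their denominator and are not independent of one another. The log2 fold changes of Gc and Trf themselves were 0.04 and 0.000775, and that of Alb was -0.26. The rises of Gc and Trf to Alb therefore mostly restate the estimate for Alb. Other genes were not set over Alb, so how often such a ratio rises is not known. The members were listed when earlier results of these data were known, and the adjustment covers only the 7 ratios.

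The other ratios to Alb did not pass. Ttr to Alb differed by 0.21 on the log2 scale (exact p = 0.0455, adjusted 0.0795), with GH replicate 6 below the PBS mean, and by 0.259 without that library (exact p = 0.00649, adjusted 0.0189). Afp to Alb differed by 0.48 (exact p = 0.0584, adjusted 0.0818), with 3 PBS libraries, replicates 2, 3 and 4, inside the GH range. Afm to Alb differed by only 0.02 (exact p = 0.784), with 3866 and 3913 Afm reads per 1e6 Alb reads. Rbp4 to Ttr, the genes of the 2 proteins that circulate as a complex, differed by 0.22 (exact p = 0.117, adjusted 0.136), and by 0.115 without GH replicate 6 (exact p = 0.232, adjusted 0.270) and 0.101 as a difference of medians.

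**Figure D4:**
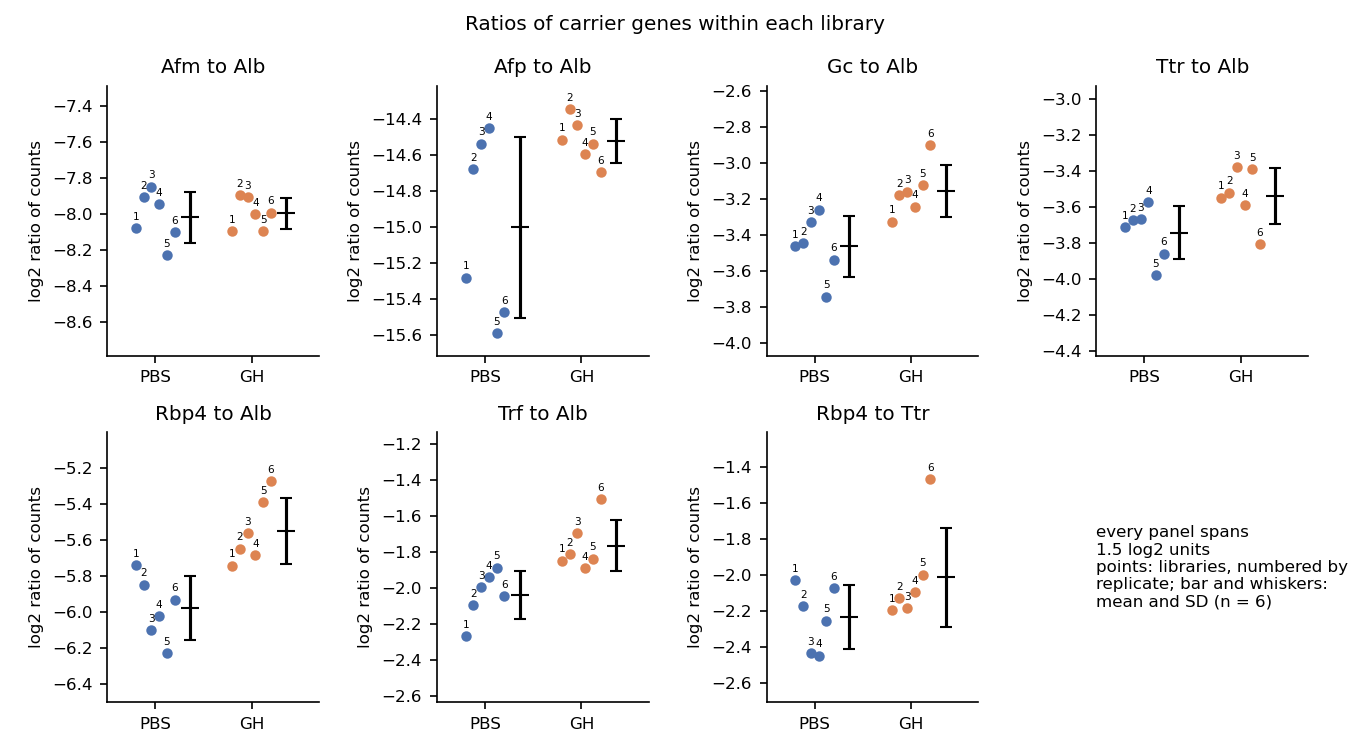
Log2 ratios of counts between carrier genes within each library, PBS against GH, with replicate numbers, means and SD (n = 6), every panel spanning the same range. The GH libraries sit higher than the PBS mean for Gc, Rbp4 and Trf relative to Alb, and the 2 groups coincide for Afm relative to Alb.

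A single library bore on several of these values. GH replicate 6 was the lowest GH library for 6 of the 7 genes, all but Rbp4. The margin was small for Trf (17655 against 17664 CPM in GH replicate 4) and for Gc (6723 against 6771 CPM in GH replicate 3). GH replicate 6 also stood apart in some acute phase genes, which the liver raises in inflammation. The serum amyloid genes Saa1 and Saa2 were at 3056 and 3125 CPM there, against 591 to 828 and 220 to 339 CPM in the other GH libraries. Saa3, Orm2 and Lcn2 were also highest there among GH libraries, but Apcs was lowest, at 225 CPM against 228 to 357 CPM. Orm1 hardly stood apart, at 1073 CPM against 886 to 1051 CPM. Saa1 and Saa2 were higher in all 6 GH libraries than in any PBS library, where they ran from 19.3 to 129 and from 7.87 to 38.1 CPM. Their part in the carrier results was not tested. Without GH replicate 6 the log2 fold change of Alb was -0.205 and that of Afm -0.184, and the 7-gene share differed by -1.35 percentage points. In PBS, replicate 5 was the highest library for Alb and Trf and the lowest for Afp, Gc and Ttr.

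**Figure D5:**
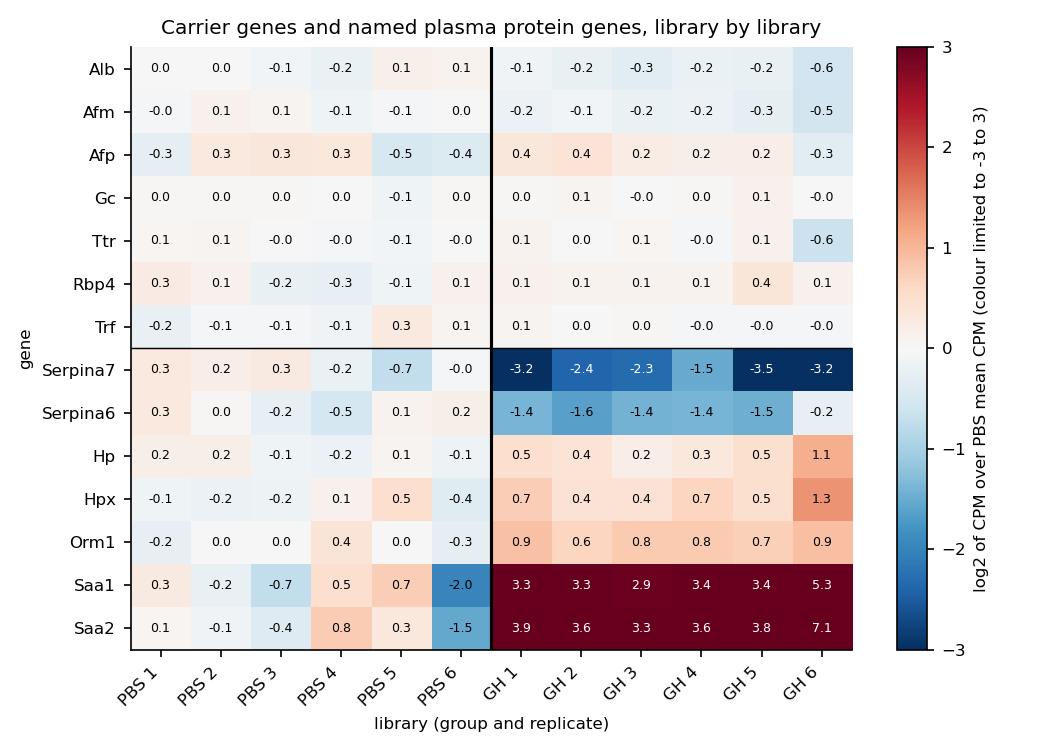
Log2 of CPM over the PBS mean CPM in each of the 12 libraries, for the 7 carrier genes (top) and 7 other plasma protein genes (bottom), colour limited to the range of -3 to 3. The carrier genes are pale throughout, and Saa1 and Saa2 are near or beyond the colour limit in all 6 GH libraries, with the highest printed values in GH replicate 6.

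Within groups the carriers varied together only in part. After each group's mean was subtracted, Pearson's r over the 12 libraries was 0.766 for Afm and Ttr, 0.684 for Alb and Ttr, 0.643 for Alb and Afm and -0.633 for Gc and Trf. These points share their library and its scaling, and are given as a description. By the same measure, among the 7544 genes with a mean of at least 10 CPM, the gene most like Alb was Gstm1 (r = 0.922), like Afm Asb13 (0.912), like Afp Ero1lb (0.900) and like Gc Kat2b (0.943). Ttr was most like Blvrb (0.936) and Rbp4 most like Fzd8 (0.942). For Trf it was Gm20425, which shares its reads, and then Brd2 (0.911). Each comes from a search for the highest r over those 7544 genes in 12 libraries, which by itself yields high values.

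The neighbourhood of Alb, Afp and Afm held few other genes in the count table. Whether any of them is related to albumin was not examined. Beyond Afm, the nearest gene in the count table was 5830473C10Rik, which went from 51.3 ± 9.38 to 39.3 ± 6.93 CPM, or -0.39 ± 0.128 in log2 units (edgeR, adjusted p = 0.109). On the other side of Alb the nearest was Gm9958, with only 10 to 38 reads per library. Ankrd17, beyond it, differed by 0.10 in log2 units (edgeR, adjusted p = 0.534). Rassf6, beyond 5830473C10Rik, differed by -0.11 (adjusted p = 0.677).

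Other genes for plasma carriers were read from the same fit. Of 16 tested, 4 rose, 3 fell and 9 did not pass, with a median log2 fold change of -0.04. Serpina7, whose product is thyroxine-binding globulin, fell from 61.1 ± 14.7 to 10.6 ± 5.98 CPM (log2 fold change -2.52 ± 0.345, adjusted p = 0.00248 in edgeR), with groups that did not overlap. Serpina6, for the glucocorticoid carrier transcortin, fell from 148 ± 29.4 to 66.0 ± 29.4 CPM, and Igfals, for the subunit that stabilises IGF complexes, from 78.3 ± 12.3 to 48.6 ± 12.3 CPM. Thyroxine-binding globulin shares its ligand with transthyretin and albumin, whose genes did not pass the test. The 4 that rose were Orm1 (orosomucoid, log2 fold change 0.79), Hpx (hemopexin, 0.72), Hp (haptoglobin, 0.53) and Ambp (alpha-1-microglobulin, 0.26), the first 3 of them acute phase genes. Hp was highest in GH replicate 6, at 5967 CPM against 3220 to 3960 in the other GH libraries, and so was Hpx. Calls were lost when 1 library was left out in 7 of the 12 such fits for Hpx, Ambp and Igfals, in 4 for Hp, in 2 for Serpina6, and in none for Serpina7 and Orm1.

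Genes that handle what the carriers transport changed in part. Of 9 tested genes for receptors, uptake and recycling, 2 rose and 1 fell. Slc40a1, the iron exporter ferroportin, fell from 159 ± 20.4 to 94.3 ± 22.5 CPM, while Lrp2 (megalin, an uptake receptor for several carrier proteins) rose from 1.18 to 3.61 CPM and its adaptor Dab2 from 10.6 to 14.2 CPM. Fcgrt, the receptor that spares albumin from breakdown, had 0.21 as its log2 fold change (adjusted p = 0.166 in edgeR). Of the transferrin receptors, Tfrc had one of -0.52 (adjusted p = 0.367 in edgeR), with means of 32.6 CPM in PBS and 22.8 in GH. Tfr2, at 305 and 351 CPM, had one of 0.20 (adjusted p = 0.0931 in edgeR and 0.0130 in DESeq2). Of 12 iron genes 3 rose (Hfe2, Slc11a2 and Steap3) and none fell, and Hamp, the iron hormone hepcidin, had an adjusted p of 0.781. Of 13 retinoid genes Aldh1a1, a retinaldehyde dehydrogenase, fell (adjusted p = 0.0422) and 12 did not pass. None of 8 thyroid hormone genes and none of 3 vitamin D genes passed in edgeR. Leaving out 1 library ended the call of Aldh1a1 in 10 of 12 fits, of Steap3 and Dab2 in 6, of Slc11a2 in 5 and of Lrp2 in 1, and library totals alone ended those of Dab2, Slc11a2, Steap3 and Ambp.

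Among 24 transcription factors known to act on the albumin family, 1 rose and 1 fell. Onecut1, a liver factor, fell from 20.4 ± 12.0 to 1.67 ± 0.360 CPM (log2 fold change -3.60 ± 0.465, adjusted p = 0.00167 in edgeR), with groups that did not overlap and no call lost when 1 library was left out. Nfic rose, with a log2 fold change of 0.50, a call lost in 5 of 12 such fits. Hnf4a, a nuclear receptor of hepatocytes, differed by -0.11 in log2 units (adjusted p = 0.624). Zhx2 and Zbtb20, repressors of Afp in mouse liver, had values of 0.12 and -0.14 and did not pass. Of 5 tested genes under Zhx2 control, which include Afp, only Mup20 passed and rose, a call lost in 2 of 12 fits with 1 library left out (without PBS replicate 5 or GH replicate 2), and none of 4 fetal liver and progenitor genes passed. Mup20, like Orm1, Saa1, Saa2 and Srp54a, belongs to a family of related genes, so its counts are uncertain where reads match several of them.

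The secretory pathway, through which every carrier leaves the cell, showed 2 rises and 5 falls among 24 genes, with a median log2 fold change of -0.09. Hspa5, the main chaperone of the endoplasmic reticulum, fell from 936 ± 230 to 592 ± 76.6 CPM. Sec23b and Sec24d, coat proteins of the vesicles that leave it, fell by 0.90 and 0.58 on the log2 scale. Spcs2 and Srp54a fell too, and Ssr4 and Sec11c rose. No call was lost with 1 library left out for Hspa5, Sec23b, Sec24d and Ssr4, while that of Srp54a was lost in 10 of 12 fits, of Sec11c in 7 and of Spcs2 in 4.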

How the data were processed

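Liver RNA samples of germ-free male mice, 6 after PBS and 6 after GH, were sequenced from ribosomal RNA-depleted total RNA with a stranded kit, per the labels' protocols. The deposited values are raw exonic read counts per gene in 1 table, not normalized by the authors. The submitters' processing notes name STAR 2.4.0i and mm10. Not given in the sources used here are the counting program, the annotation, whether strand was used and how multiply mapped reads were treated, so overlapping genes are named beside the results. Identifiers were matched to GENCODE M21 (36308 of 38087 found), and promoters to RefSeq's table (5 of 7 genes).

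Counts were fitted in R 4.3.3 with edgeR 4.0.16: filterByExpr (minimum count 10), TMM, a robust quasi-likelihood fit with group as the only term, and a two-sided F test. SE are the absolute log2 fold change over the square root of F. DESeq2 1.42.0 was an alternative, as were other scalings, no filter, a non-robust fit, a replicate block and leaving out libraries. Shares and ratios used exact permutation tests.

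All 7 genes are named, and of each list the genes past the threshold with up to 4 others close to a carrier's function, a rule set with the members and lists when earlier results of these data were known. Leaving out the Gm20425 counts, and leaving out GH replicate 6 and PBS replicate 5 together for the share and ratios, were chosen after seeing the data, as were the acute phase genes shown by library.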

Additional observations from a re-analysis of the deposited data

Results flagged for a closer look

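A sample was singled out where its gap to the nearest other sample, relative to its group's range, exceeded Dixon's 95% critical value for 6 samples. Over 15 measures in both groups, 30 sets of values were examined, and chance flags about 1 in 20. Of the 6 found, 4 were GH replicate 6. They were its low Ttr (3586 CPM), its low Afp (1.89 CPM), its low 7-gene share of counts (7.86%) and its high log2 ratio of Rbp4 to Ttr (-1.47). The others were PBS replicate 5, low in Gc (6171 CPM), and GH replicate 5, high in Rbp4 (1533 CPM). The Afp value rests on 43 reads.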

How the results depend on the processing

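Over 18 results there were 332 alternative values, of which 298 kept their direction and their side of the threshold, or stayed within 1.5 times for a count. The number of genes called, 682, was 391 with a replicate block, 1072 in DESeq2, 1022 without GH replicate 6 and PBS replicate 5, and 434 (without GH replicate 2) to 854 (without PBS replicate 5) with 1 library left out, with 447 without GH replicate 1. Carrier genes called lower numbered 2 with library totals alone, 1 without a filter, 2 in DESeq2 and 0 in every fit with 1 library left out. Library totals alone moved the median of all genes by -0.0586, and gave log2 fold changes of -0.32 for Alb and -0.30 for Afm (both past the threshold), -0.0174 for Gc and -0.0579 for Trf (signs reversed). Alb passed at -0.26 without a filter and at -0.26 in DESeq2, and Afm at -0.24 in DESeq2. Trf was -0.00149 with the 7 genes out of the scaling and -0.00168 without a filter. With 1 library left out, Alb ran from -0.298 to -0.205, Afm from -0.269 to -0.184, Trf from -0.0409 to 0.0635 and Ttr from -0.0753 to 0.0564. Of the log2 ratios to Alb, Afm then ran from -0.0213 to 0.0551, Afp from 0.365 to 0.593 and Ttr from 0.159 to 0.259, where Afp passed without PBS replicate 3 or 4, and Ttr without PBS replicate 4 or GH replicate 6. Without GH replicate 6 and PBS replicate 5, Ttr was 0.0367, Trf 0.0729, Afm to Alb -0.0224 and Ttr to Alb 0.212, past the threshold. The share ran from -1.86 to -1.35 percentage points with 1 library left out. Under the replicate block, an exact sign-flip test over 64 flips whose smallest p is 0.03125, the ratios to Alb of Gc (0.307), Rbp4 (0.429) and Trf (0.273) had an adjusted p of 0.109. Same-numbered libraries correlated at -0.175 to 0.159, and only number 4 of 6 matched itself best. These values show no strong pairing by number, but a weak pairing could give the same values. Apart from these constructions the cause was not tested. Depth limits only Afp, at 36 to 62 reads.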
